A study of Mus musculus with 26 samples.

Results

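The genes described here are 10 secreted factors that act on myeloid cells or belong to the interleukins made by stressed epithelium: Csf1, Csf2, Csf3, Il34, Il1a, Il33, Il6, Lif, Il24 and Tslp. They were chosen by name and matched through their Ensembl identifiers to 10 of the 47730 features of the deposited count table. Every one of the 10 passed the filter on low counts, which left 16637 features to test. Their levels were followed in 24 libraries of sorted mouse mammary tumour cells, in 4 groups, and in 2 libraries of the same tumour line in culture.

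These factors are the classical means by which a tissue recruits and sustains myeloid cells. Csf1 and Il34 are the ligands of the receptor Csf1r, on which macrophages depend, Csf2 (GM-CSF) and Csf3 (G-CSF) drive the output and activity of granulocytes, macrophages and dendritic cells, and Il6 and Lif signal through the shared chain gp130 to STAT3. Il1a and Il33 are alarmins of the IL-1 family that are held inside cells and act when released, and Tslp and Il33 are known in barrier epithelia as signals to innate lymphoid and dendritic cells.

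The tumours were grown from cells of the Her2-expressing mouse mammary line E-A14 (its rat activated Neu transgene has a feature in the count table), placed in the fourth mammary fat pad of FVB/N mice aged 6 to 8 weeks. One set of mice was depleted of T cells with anti-CD4 and anti-CD8a antibodies and its tumours were taken on day 20, and the control set received rat IgG2a and IgG2b and its tumours were taken on day 47. Each antibody was given at 100 µg, 2 times a week, starting 2 weeks before implantation. Live cells without CD45, CD90 or CD105 were sorted as Her2-positive EpCAM-positive (epithelial) or Her2-positive EpCAM-negative (mesenchymal) cells, which gave 6 libraries for each of depleted EpCAM-positive, depleted EpCAM-negative, control EpCAM-positive and control EpCAM-negative cells. The cultured line had no host and no sort. Because each treatment had its own day, T cell depletion and time since implantation cannot be told apart in any comparison between the treatments. In sorted bulk RNA, fewer cells that make a transcript and less transcript per cell cannot be told apart.

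Libraries held 17559520 to 38740143 counts, and all depleted libraries (at most 25601999) were shallower than all control libraries (at least 26895429). The transcript of the sort marker Epcam averaged 2437 CPM (the count scaled to the effective library size) in depleted EpCAM-positive and 140 in depleted EpCAM-negative cells, and 1183 against 1.63 CPM in control tumours. Summed over 12 T cell markers, the groups averaged 0.795 and 2.16 CPM in depleted and 5.66 and 11.7 CPM in control EpCAM-positive and EpCAM-negative cells, against 3.30 in culture, and the highest tumour library had 18.4 CPM. In control EpCAM-negative cells 7 of the 12 were at 0 in all libraries (Cd3d, Cd3g, Cd4, Cd8a, Cd8b1, Cd2 and Cd5). In control EpCAM-positive cells only Cd4 was, in the depleted groups 5 and 6 were, and in culture 9. Summed over 10 dendritic cell markers the groups averaged 14.3 and 8.43 CPM in depleted and 53.7 and 52.1 CPM in control cells, against 10.2 in culture. The part of either cell type in the changes between treatments was not tested. Summed over 17 macrophage and monocyte markers, the groups averaged 256 CPM in depleted EpCAM-positive, 260 in depleted EpCAM-negative, 301 in control EpCAM-positive and 132 in control EpCAM-negative cells, against 104 in culture. Summed over 14 fibroblast markers, control cells averaged 4655 CPM (EpCAM-positive) and 3959 CPM (EpCAM-negative), against 170 and 222 in depleted cells and 20.1 in culture. In the sums the 2 treatments did not overlap for fibroblast markers, and Dcn, Postn and Col1a1 made up most of the control level.

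Promoter sequences were matched for 6 of the 10 genes in a RefSeq table of the build GRCm38.p6, which gives 250 bases before and 50 bases after each start. The 4 genes shown are those with an entry that moved between the treatments in both fractions: Il33 and Il6 upward, Csf2 and Il1a downward in control tumours. Capitals mark the letters that matched 1 of 5 patterns searched on both strands: the core promoter element TATAAA, the AP-1 element TGANTCA, the NF-kB type element GGANTTTCC, the cyclic AMP response element TGACGTCA and the C/EBP type element TTGCNNAA. Il6 lies on chr5:30012864-30013163 (plus strand), Csf2 on chr11:54249850-54250149 (minus strand), Il1a on chr2:129309923-129310222 (minus strand), and Il33 has 2 annotated starts, an upstream one on chr19:29924863-29925162 (plus strand) and a downstream one on chr19:29945540-29945839 (plus strand).
Il6: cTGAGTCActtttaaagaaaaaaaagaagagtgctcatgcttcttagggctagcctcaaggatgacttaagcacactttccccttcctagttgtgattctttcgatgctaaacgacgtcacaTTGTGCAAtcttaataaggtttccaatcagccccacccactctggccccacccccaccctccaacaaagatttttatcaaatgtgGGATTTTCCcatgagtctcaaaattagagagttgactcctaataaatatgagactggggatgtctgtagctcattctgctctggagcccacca
Csf2: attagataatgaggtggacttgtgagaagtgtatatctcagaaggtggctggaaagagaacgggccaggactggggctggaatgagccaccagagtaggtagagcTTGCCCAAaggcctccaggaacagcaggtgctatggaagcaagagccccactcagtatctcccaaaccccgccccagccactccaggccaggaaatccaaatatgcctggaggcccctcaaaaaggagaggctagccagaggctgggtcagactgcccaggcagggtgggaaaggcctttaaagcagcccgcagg
Il1a: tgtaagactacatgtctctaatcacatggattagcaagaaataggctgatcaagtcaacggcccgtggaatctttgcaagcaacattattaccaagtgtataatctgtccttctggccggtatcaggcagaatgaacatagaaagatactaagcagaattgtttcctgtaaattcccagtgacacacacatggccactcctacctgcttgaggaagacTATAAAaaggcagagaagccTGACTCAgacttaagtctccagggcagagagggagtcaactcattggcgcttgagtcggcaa
Il33 upstream start: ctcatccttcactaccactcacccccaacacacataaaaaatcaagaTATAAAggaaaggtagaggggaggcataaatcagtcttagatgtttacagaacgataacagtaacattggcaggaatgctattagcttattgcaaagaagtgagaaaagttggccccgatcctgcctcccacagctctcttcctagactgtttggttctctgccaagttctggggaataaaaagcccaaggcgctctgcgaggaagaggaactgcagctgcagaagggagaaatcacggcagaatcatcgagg
Il33 downstream start: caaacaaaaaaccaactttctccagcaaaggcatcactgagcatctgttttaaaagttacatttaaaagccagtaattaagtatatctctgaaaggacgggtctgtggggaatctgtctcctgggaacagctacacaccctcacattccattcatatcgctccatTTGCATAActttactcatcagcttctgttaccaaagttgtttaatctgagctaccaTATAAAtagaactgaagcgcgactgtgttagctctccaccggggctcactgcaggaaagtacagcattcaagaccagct
The Il6 window held 3 of the patterns, AP-1 at -249, C/EBP type at -128 and NF-kB type at -43 from the start, and was the only one of these 5 windows with an NF-kB type match. Csf2 held a C/EBP type match at -145. The Il1a window held TATAAA at -32 and an AP-1 match at -12. Both Il33 windows held TATAAA, at -203 before the upstream start and at -29 before the downstream one, which also had a C/EBP type match at -85. Of the 2 windows not printed, that of Csf1 held an NF-kB type match at -154 and that of Lif an AP-1 match at -228. Among all 32851 promoters of the table, TATAAA was present in 13.6%, AP-1 in 7.81%, NF-kB type in 1.25%, the cyclic AMP element in 1.79% and C/EBP type in 10.8%. None of the 5 patterns overlaps another at these positions, and a match is a string of letters, not an observed binding site.

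Between treatments the factors split into a group that was higher in control tumours, led by Il33, and a larger group that was lower, led by Tslp and Il24 in EpCAM-positive and by Il24 and Il1a in EpCAM-negative cells. In EpCAM-positive cells 3 of the 10 were higher in control tumours (Il33, Il6, Il34), 6 were lower (Csf1, Csf2, Csf3, Il1a, Il24, Tslp) and only Lif was not called, where 40% of all features tested were called. In EpCAM-negative cells 2 were higher (Il33, Il6), 5 were lower (Csf2, Csf3, Il1a, Il24, Tslp) and 3 were not called (Csf1, Il34, Lif), against 45.1% of all features. The median log2 change of the 10 was -0.65 for the EpCAM-positive and -1.06 for the EpCAM-negative fraction, against 0.02 and -0.03 for all features. Groups of libraries did not overlap for 4 of the 10 in EpCAM-positive cells, where this held for 21.7% of all features, and for 7 of the 10 in EpCAM-negative cells, against 24.8% of all features. Calls are at an adjusted p under 0.05 in edgeR's quasi-likelihood test, with Benjamini-Hochberg adjustment over the 16637 features.

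**Figure D1:**
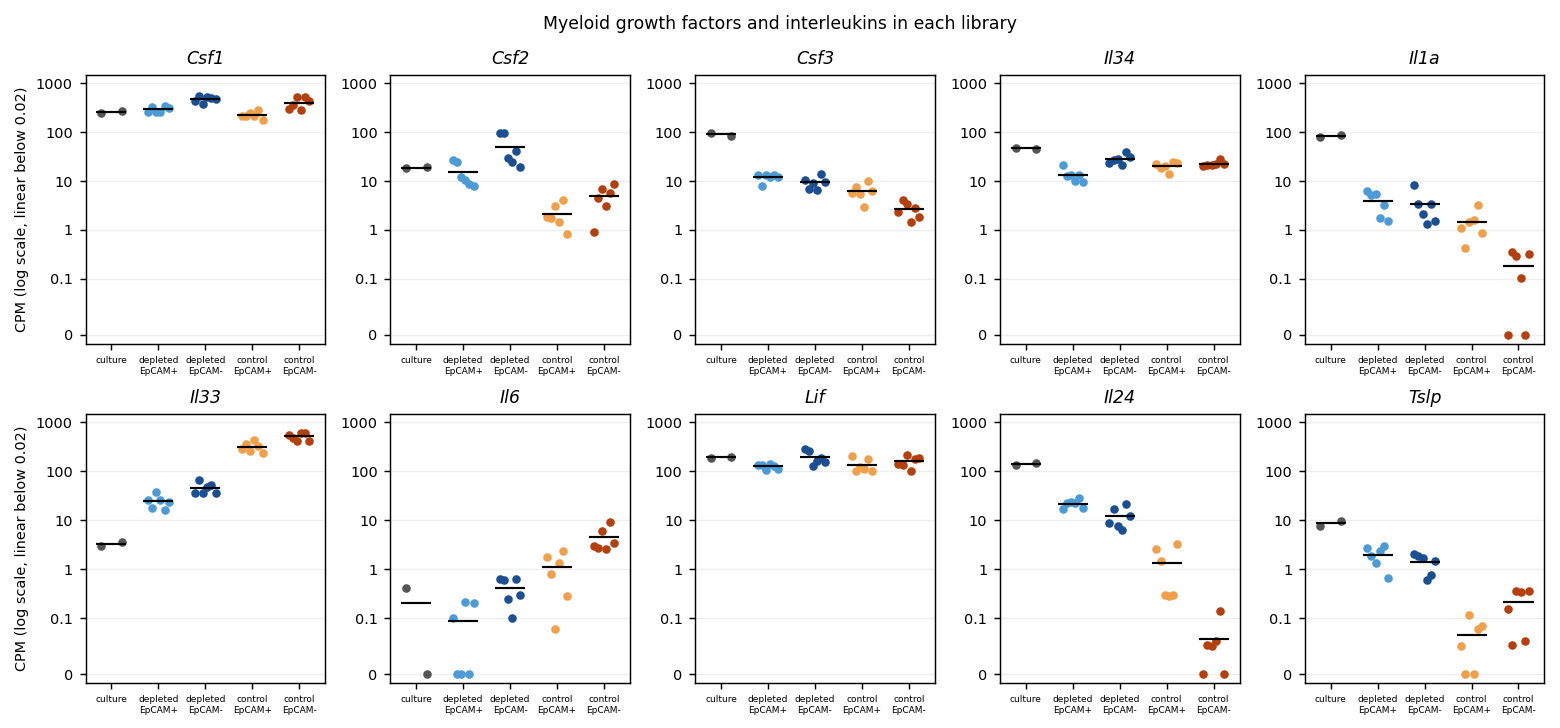
CPM of each of the 10 factors (vertical axis, log scale that is linear below 0.02) in the 2 culture libraries and in the 6 libraries of each tumour group (horizontal axis); points are libraries and bars are means. Il33 climbs from about 3.34 CPM in culture to 516 CPM in control EpCAM-negative cells, while Il24 goes from 140 CPM in culture to 0.0381 CPM in the same group.

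Between the fractions of control tumours, EpCAM-negative cells had more Csf1, Il33, Il6 and Tslp and less Csf3, Il1a and Il24 than EpCAM-positive cells, with 3 of the 10 not called (Csf2, Il34, Lif) and 27.9% of all features called. Within depleted tumours, EpCAM-negative cells had more Csf1, Csf2, Il34, Il33 and Lif, none of the 10 was lower, and 5 were not called, against 28.5% of all features. The test of the difference between these 2 contrasts called 4 of the 10, Il34, Il1a, Il24 and Tslp, against 18% of all features. Libraries of the 2 fractions did not overlap for 4 of the 10 in control tumours, against 13.4% of all features, and for 2 of the 10 in depleted tumours, against 15.5%.

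**Figure D2:**
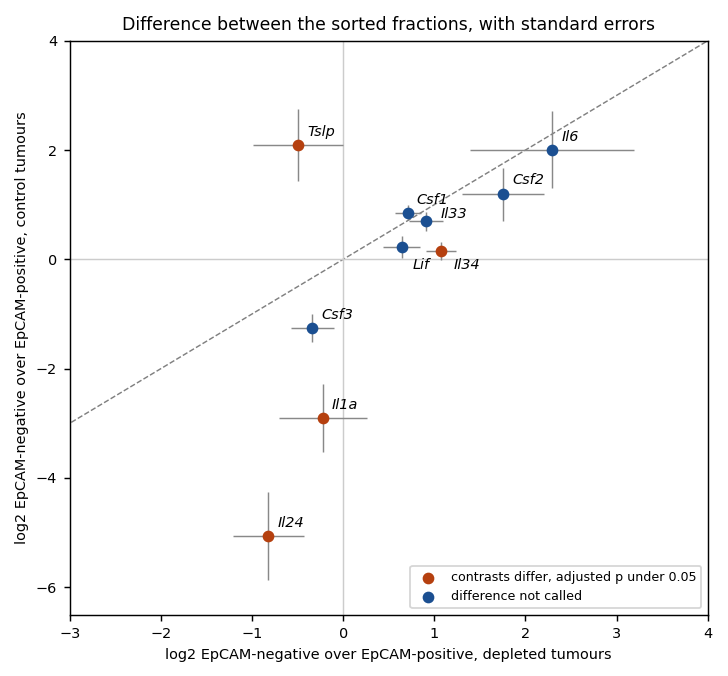
Log2 change of EpCAM-negative over EpCAM-positive cells in depleted (horizontal) and control tumours (vertical), 1 point per factor with standard errors; the dashed line marks equal contrasts. Il24, Il1a and Il34 lie below the line and Tslp above it, with an adjusted p under 0.05 for the difference.

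Csf1, the main growth factor of macrophages, was abundant in every group and followed the sorted fraction. Its 2 culture libraries gave 247 and 267 CPM. In depleted tumours the EpCAM-positive libraries ran from 255 through a median of 286 to 345 CPM, and the EpCAM-negative ones from 379 through 492 to 546 CPM. In control tumours the EpCAM-positive libraries ran from 173 through 213 to 277 CPM, and the EpCAM-negative ones from 283 through 388 to 530 CPM. The fractions did not overlap in either treatment. Csf1 was 0.71 ± 0.14 log2 units (± standard error throughout) higher in EpCAM-negative cells of depleted tumours (adjusted p = 0.000402) and 0.86 ± 0.14 higher in those of control tumours (adjusted p = 5.11e-05). These 2 contrasts differed by 0.15 ± 0.20, which was not called (adjusted p = 0.684). In EpCAM-positive cells the change of Csf1 from depleted to control tumours was -0.40 ± 0.14 log2 units (adjusted p = 0.0259), with overlapping libraries. That call was lost without the filter on low counts (-0.37, adjusted p = 0.0512) and without depleted EpCAM-positive library 2 or 5 or control EpCAM-positive library 2 or 6 (-0.34 to -0.39, adjusted p 0.0508 to 0.0722), and without depleted tumours 1 and 2 (-0.40, adjusted p = 0.0641). Between the 2 EpCAM-negative groups the change of -0.26 ± 0.14 was not called (adjusted p = 0.149), but was without control EpCAM-negative library 5 (-0.35, adjusted p = 0.0465).

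Il34, the second ligand of Csf1r, was less abundant and its contrast between fractions depended on the treatment. Culture gave 47.2 and 45.8 CPM, above all tumour libraries. Depleted EpCAM-positive libraries ran from 9.55 through 12.9 to 20.8 CPM and EpCAM-negative ones from 21.0 through 27.1 to 38.4 CPM, so that these fractions did not overlap. Control EpCAM-positive libraries ran from 14.1 through 21.2 to 24.4 CPM and EpCAM-negative ones from 20.0 through 21.8 to 28.2 CPM, and these overlapped. The EpCAM-negative excess was 1.08 ± 0.17 log2 units in depleted tumours (adjusted p = 1.59e-05) and 0.15 ± 0.16 in control tumours (adjusted p = 0.55). The control minus the depleted contrast was -0.92 ± 0.23 log2 units (adjusted p = 0.00636). EpCAM-positive cells had 0.62 ± 0.17 log2 units more Il34 in control than in depleted tumours (adjusted p = 0.00426), while the change in EpCAM-negative cells was -0.31 ± 0.16 (adjusted p = 0.133). Antisense genes overlap Il34 on the other strand (Gm15894 by 22 bases with 463 counts over all 26 libraries, Gm15895 by 75 bases with 64 counts), and their reads cannot be told apart without strand.

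The shared receptor Csf1r ran opposite to Csf1 between fractions. It averaged 70.5 ± 12.2 CPM (SD, n = 6) in depleted EpCAM-positive and 17.1 ± 5.99 in depleted EpCAM-negative cells, 85.4 ± 38.4 in control EpCAM-positive and 4.89 ± 1.76 in control EpCAM-negative cells, and 1.62 CPM in culture. From EpCAM-positive to EpCAM-negative cells it fell by 2.05 log2 units in depleted (adjusted p = 1.64e-06) and fell by 4.13 in control tumours (adjusted p = 7.84e-11), and the contrasts differed by -2.08 (adjusted p = 0.000304). Of other macrophage transcripts, C1qa averaged 8.87 CPM in depleted EpCAM-positive, 10.4 in depleted EpCAM-negative, 2.58 in control EpCAM-positive and 0.442 in control EpCAM-negative cells, and Lyz2 64.7, 74.6, 7.48 and 2.87 CPM. Between the depleted fractions C1qa and Lyz2 were not called (0.22 and 0.21 log2 units, adjusted p = 0.788 and 0.81), and between the control fractions both fell (-2.53 and -1.39, adjusted p = 0.000805 and 0.0495). Of the 17 macrophage and monocyte markers, which include Csf1r, 2 rose, 1 fell and 14 were not called between the depleted fractions. Between the control fractions 2 rose, 10 fell and 5 were not called. Of all features, 28.5% were called between the depleted and 27.9% between the control fractions. The part of macrophages, which the CD45 gate should remove, in the Csf1r level was not tested. Ptprz1, another Il34 receptor, averaged at most 4.42 CPM, and Sdc1, which binds Il34, averaged 1277 to 2322 CPM in the tumour groups.

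Csf2, the gene of GM-CSF, was the colony-stimulating factor that fell most from depleted to control tumours. Culture gave 18.2 and 19.1 CPM. Depleted EpCAM-positive libraries ran from 7.78 through 11.4 to 26.3 CPM and depleted EpCAM-negative ones from 19.4 through 35.0 to 95.4 CPM. Control EpCAM-positive libraries ran from 0.837 through 1.81 to 4.0 CPM and control EpCAM-negative ones from 0.923 through 5.16 to 8.62 CPM. No control library reached the lowest depleted library of its own fraction. From depleted to control tumours Csf2 fell by 2.78 ± 0.49 log2 units in EpCAM-positive (adjusted p = 5.37e-05) and fell by 3.35 ± 0.48 in EpCAM-negative cells (adjusted p = 2.82e-06). EpCAM-negative cells had 1.76 ± 0.45 log2 units more Csf2 in depleted tumours, with overlapping groups (adjusted p = 0.00412, higher in 6 of 6 tumour numbers). In control tumours the difference of 1.19 ± 0.48 was not called (adjusted p = 0.0668). It was called without control EpCAM-positive library 5 (1.44, adjusted p = 0.0412) or control EpCAM-negative library 1 (1.39, adjusted p = 0.0235). The difference between the contrasts was -0.57 ± 0.65 (adjusted p = 0.622).

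Depleted tumours 1 and 2 stood out for Csf2 in both fractions. Their EpCAM-negative libraries had 93.7 and 95.4 CPM, where the other 4 had 19.4 to 40.9, and their EpCAM-positive libraries had 26.3 and 24.3 CPM, where the other 4 had 7.78 to 12.2. With both tumours left out, a choice made after seeing these values, the EpCAM-negative excess was 1.52 log2 units (adjusted p = 0.0174), and the change to control tumours was -2.17 in EpCAM-positive (adjusted p = 0.000305) and -2.52 in EpCAM-negative cells (adjusted p = 3.36e-05). The summed macrophage markers of the EpCAM-negative libraries 1 and 2 were 399 CPM, the highest of the 6, and 262 CPM, where the other 4 had 183 to 323 CPM, and their summed immediate-early genes were 16000 and 16920 CPM, the 2 highest of the 6. Whether either list has a part in the Csf2 level was not tested. The antisense gene Gm12223 overlaps Csf2 by 96 bases and had 39 counts over all libraries.

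Csf3, the gene of G-CSF, was highest in culture, at 97.0 and 83.4 CPM, and lower in every tumour group. Depleted EpCAM-positive libraries ran from 7.85 through 12.6 to 13.3 CPM and EpCAM-negative ones from 6.55 through 9.43 to 13.9 CPM. In control tumours the ranges were 2.99 through 6.04 to 9.91 CPM in EpCAM-positive and 1.45 through 2.61 to 4.04 CPM in EpCAM-negative cells. The 2 depleted groups overlapped and differed by -0.34 ± 0.24 log2 units (adjusted p = 0.331), whereas the control fractions differed by -1.26 ± 0.25 (adjusted p = 0.000366). The difference between these contrasts, -0.92 ± 0.34, missed the threshold (adjusted p = 0.0661), and passed it under DESeq2 (-0.93, adjusted p = 0.0402) or without depleted EpCAM-negative library 2 or 4, control EpCAM-positive library 4 or control EpCAM-negative library 2 (-1.0 to -1.08, adjusted p 0.0188 to 0.0498). From depleted to control cells Csf3 fell by 0.90 ± 0.24 log2 units in the EpCAM-positive (adjusted p = 0.00387) and fell by 1.82 ± 0.25 in the EpCAM-negative fraction (adjusted p = 1.41e-06), the latter without overlap.

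The receptor chains for Csf2 and Csf3, which myeloid cells carry, were scarce in all groups. Csf2ra averaged between 0.0256 CPM in culture and 1.43 CPM in depleted EpCAM-negative cells, Csf2rb at most 3.22 CPM and Csf3r at most 0.513 CPM. Between the treatments Csf2ra fell by 4.83 log2 units in EpCAM-negative cells (adjusted p = 1.12e-05), to 9 counts in 6 libraries against 178. Csf2rb2 fell by 8.23 in the same comparison (adjusted p = 3.07e-05), a fitted value that depends on the prior count because it was at 0 in all control EpCAM-negative libraries. Summed over 11 neutrophil markers, the libraries averaged 13.4 and 16.4 CPM in depleted and 3.31 and 3.19 CPM in control fractions. The sum was 31.2 CPM in culture, which had no host and where Csf3r, Mmp8, Retnlg, Stfa2 and Hdc were at 0. Of the 8 tested markers 2 fell in control EpCAM-positive and 4 fell in control EpCAM-negative cells, and none rose. The part of neutrophils in the Csf2 and Csf3 levels was not tested. Of 18 receptor genes 16 were tested, and 5 rose and 4 fell in control EpCAM-positive and 4 rose and 7 fell in control EpCAM-negative cells. Over all features 40% and 45.1% were called in these comparisons.

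Il1a, the alarmin form of IL-1 that needs no cleavage to be active, was high in culture, at 78.5 and 85.2 CPM, and low in every tumour group. Depleted libraries ran from 1.5 through 4.16 to 6.29 CPM in EpCAM-positive and from 1.33 through 2.74 to 8.32 CPM in EpCAM-negative cells, with wide overlap. Control EpCAM-positive libraries ran from 0.428 through 1.25 to 3.21 CPM, while the control EpCAM-negative libraries had 0, 13, 11, 3, 0 and 10 counts, or 0 through 0.202 to 0.362 CPM. The highest control EpCAM-negative library was below the lowest of every other group. Between the control fractions Il1a fell by 2.91 ± 0.62 log2 units (adjusted p = 0.000793), 7.61-fold in pooled counts (95% counting interval 5.39 to 11). In depleted tumours the fractions differed by -0.22 ± 0.49 (adjusted p = 0.797), and the difference between the contrasts was -2.69 ± 0.79 (adjusted p = 0.018).

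From depleted to control tumours Il1a fell by 4.12 ± 0.62 log2 units in EpCAM-negative cells (adjusted p = 4.77e-06). It fell by 1.43 ± 0.50 in EpCAM-positive cells (adjusted p = 0.0245), a call that was lost without depleted EpCAM-positive library 1 or 3 or control EpCAM-positive library 2 or 6 (-1.24 to -1.31, adjusted p 0.0513 to 0.0628) and without depleted tumours 1 and 2 (-1.05, adjusted p = 0.109). Il1b, the related cytokine that macrophages make, averaged 12.2 and 15 CPM in the depleted and 3.10 and 0.362 CPM in the control EpCAM-positive and EpCAM-negative groups, and 0.365 CPM in culture. Of 17 macrophage markers, 7 fell and 3 rose in control EpCAM-positive cells (40% of all features called), and 12 fell and 1 rose in control EpCAM-negative cells (45.1%). Their part in the Il1a level was not tested. The antisense gene Gm14023 overlaps Il1a by 222 bases and had 98 counts in all.

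Il33, the alarmin that signals through ST2, showed the opposite course and was the factor with the smallest adjusted p between the treatments. Its culture libraries had 3.01 and 3.66 CPM. In depleted tumours the EpCAM-positive libraries ran from 16.4 through 24.9 to 37.3 CPM and the EpCAM-negative ones from 35.9 through 42.3 to 66.7 CPM. In control tumours the EpCAM-positive libraries ran from 243 through 311 to 435 CPM and the EpCAM-negative ones from 423 through 516 to 610 CPM. Every control library was above every depleted library and every depleted library above culture, while the 2 fractions of each treatment overlapped at their edges. Il33 was higher in control tumours by 3.70 ± 0.20 log2 units in EpCAM-positive (adjusted p = 1.94e-13) and by 3.48 ± 0.20 in EpCAM-negative cells (adjusted p = 2.95e-13). EpCAM-negative cells had 0.91 ± 0.19 log2 units more in depleted (adjusted p = 0.000456, higher in 5 of 6) and 0.69 ± 0.18 more in control tumours (adjusted p = 0.00458). The contrasts differed by -0.21 ± 0.26 (adjusted p = 0.637).

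Fibroblasts can express Il33, and transcripts on the fibroblast list moved between the treatments with it. Of the 12 tested fibroblast markers 6 rose in control EpCAM-positive (40% of all features called) and 7 rose and 1 fell in control EpCAM-negative cells (45.1%). Dcn averaged 1899 and 1316 CPM in the control groups against 1.95 and 6.43 CPM in the depleted ones, and Postn 2087 and 619 against 15.6 and 16.1 CPM. Other markers of the list stayed low in control cells: Dpt averaged 0.0832 and 0.261 CPM, Cd34 2.18 and 0.160 CPM, and Thy1, the gene of the excluded CD90, was at 0 in all control EpCAM-negative libraries. Pericyte markers, summed over 10 genes, averaged 85.6 and 31.9 CPM in depleted and 484 and 1128 CPM in control fractions. Pdgfrb made up most of the control sums, at 399 and 1064 CPM against 1.42 and 10.9 CPM in depleted cells. Of the 9 tested pericyte markers 5 rose and 2 fell in control EpCAM-positive cells, and 2 rose and 2 fell in control EpCAM-negative cells, where Kcnj8 and Abcc9 were at 0 in all libraries. The part of such cells in the Il33 level, and in the Il6 level that moved the same way, was not tested. The Il33 receptor gene Il1rl1 (ST2) averaged at most 2.27 CPM, in depleted EpCAM-negative cells, where it was 5.01 log2 units above the EpCAM-positive fraction (adjusted p = 0.000143, from 289 against 8 counts).

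Il1r1, the receptor of Il1a, moved opposite to its ligand. It averaged 6.63 ± 2.83 and 9.09 ± 4.42 CPM (SD, n = 6) in depleted and 57.9 ± 10.1 and 82.3 ± 16 CPM in control EpCAM-positive and EpCAM-negative cells, and 0.227 CPM in culture. The control level was higher by 3.12 log2 units in EpCAM-positive (adjusted p = 1.79e-09) and by 3.18 in EpCAM-negative cells (adjusted p = 7.42e-10). Il1rap, the chain that both Il1r1 and ST2 need, fell by 0.89 in control EpCAM-positive cells (adjusted p = 6.81e-05) and did not pass in EpCAM-negative cells (-0.31, adjusted p = 0.115). Il1rn, the secreted IL-1 receptor antagonist, was 0.73 and 1.36 log2 units higher in the control fractions (adjusted p = 0.00394 and 3.04e-06), and the decoy Il1r2 fell by 5.39 (adjusted p = 1.77e-05) and fell by 5.85 (adjusted p = 6.68e-06), to 4 and 3 counts. They belong to 10 tested decoys, antagonists and feedback inhibitors, of which 5 rose and 2 fell in control EpCAM-positive and 6 rose and 2 fell in control EpCAM-negative cells. Over all features 40% and 45.1% were called in these comparisons. Of 11 tested genes of cytokine processing and release, 4 rose and 4 fell in EpCAM-positive and 5 rose and 4 fell in EpCAM-negative cells, and Casp1, the protease that cuts pro-IL-1β, averaged 8.84 and 19 CPM in depleted and 143 and 215 CPM in control cells (4.01 and 3.50 log2 units higher, adjusted p = 5.39e-13 and 2.14e-12).

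Il6, the best known ligand of gp130, was the rarest of the 10 in culture and in depleted tumours. Culture had 13 counts in 1 library and 0 in the other. The depleted EpCAM-positive libraries had 2, 0, 0, 4, 0 and 4 counts, and the depleted EpCAM-negative ones 0.102 through 0.456 to 0.635 CPM. Control EpCAM-positive libraries ran from 0.0593 through 1.07 to 2.39 CPM, a wide spread that reached down into the depleted range, and EpCAM-negative ones from 2.62 through 3.20 to 9.43 CPM, above all other libraries. Il6 was higher in control tumours by 3.39 ± 0.76 log2 units in EpCAM-negative cells (adjusted p = 0.000671) and by 3.68 ± 0.88 in EpCAM-positive cells (adjusted p = 0.00143), where the pooled counts gave a ratio of 14.3-fold (95% counting interval 7.63 to 30.2). In control tumours the EpCAM-negative excess of 2.01 ± 0.70 was called (adjusted p = 0.0339). That call was lost when any of 5 libraries was left out, control EpCAM-positive 2, 3 or 6 or control EpCAM-negative 3 or 5 (1.65 to 1.91, adjusted p 0.0546 to 0.106). In depleted tumours the difference of 2.29 ± 0.90 missed the threshold (adjusted p = 0.0586) and passed it under DESeq2 (2.32, adjusted p = 0.0231) or without depleted EpCAM-positive library 4 or 6 or depleted EpCAM-negative library 4 (2.48 to 2.77, adjusted p 0.0437 to 0.0465).

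Lif, which signals through Lifr and gp130, was among the most abundant of the 10 in all groups and the only one not called between treatments in either fraction. Culture gave 192 and 196 CPM. Depleted libraries ran from 106 through 130 to 144 CPM in EpCAM-positive and from 131 through 174 to 283 CPM in EpCAM-negative cells. Control libraries ran from 100 (EpCAM-positive, median 115, highest 206) to 218 CPM (EpCAM-negative, lowest 101, median 160). The treatments differed by 0.12 ± 0.20 log2 units in EpCAM-positive (adjusted p = 0.681) and by -0.30 ± 0.20 in EpCAM-negative cells (adjusted p = 0.237). The one call on the tumours was an EpCAM-negative excess of 0.64 ± 0.20 in depleted mice (adjusted p = 0.0184, higher in 6 of 6). It rested on the same 2 tumours that were highest for Csf2: without depleted EpCAM-negative library 1 it was 0.50 (adjusted p = 0.0744), without library 2 it was 0.53 (adjusted p = 0.0661), without depleted EpCAM-positive library 3 it was 0.59 (adjusted p = 0.0511), and without depleted tumours 1 and 2 it was 0.36 (adjusted p = 0.3).

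The receptor of Lif differed widely between the treatments. Lifr averaged 0.914 ± 0.536 and 0.556 ± 0.560 CPM (SD, n = 6) in depleted EpCAM-positive and EpCAM-negative cells and 190 ± 35.8 and 153 ± 56.9 CPM in control cells, with 0.167 CPM in culture. The lowest control library had 69.8 CPM and the highest depleted library 1.58 CPM. The change was 7.72 log2 units in EpCAM-positive (adjusted p = 2.17e-13) and 8.18 in EpCAM-negative cells (adjusted p = 1.38e-13). Il6st, which encodes gp130, averaged between 86.2 CPM in culture and 185 CPM in control EpCAM-negative cells, and Il6ra fell by 1.36 log2 units in control EpCAM-positive (adjusted p = 1.77e-05) and fell by 0.92 in control EpCAM-negative cells (adjusted p = 0.000963).

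Genes of the pathway downstream of gp130 moved in both directions, more often upward in control tumours. Of 20 JAK-STAT3 genes, 10 rose and 3 fell in control EpCAM-positive and 10 rose and 4 fell in control EpCAM-negative cells, with medians of 0.66 and 0.39 log2 units. In these comparisons 40% and 45.1% of all features were called, and the same shares apply to the lists that follow. Socs3, the feedback inhibitor of gp130 signalling, averaged 193 and 516 CPM in depleted and 721 and 964 CPM in control EpCAM-positive and EpCAM-negative cells, 1.90 and 0.90 log2 units higher (adjusted p = 7.9e-10 and 4.29e-05). Cebpd, a STAT3 target and partner of NF-kB, rose by 3.58 and 3.12 log2 units (adjusted p = 1.17e-12 and 7.01e-12). Of 6 tested relatives in the IL-6 family, 3 fell and none rose in control EpCAM-positive cells, and 3 fell and 2 rose in control EpCAM-negative cells. Clcf1 fell by 1.2 log2 units in EpCAM-positive (adjusted p = 1.32e-06) and fell by 1.84 in EpCAM-negative cells (adjusted p = 7.88e-10). Osm, a product of myeloid cells, averaged 5.36 and 5.95 CPM in depleted and 0.629 and 0.0225 CPM in control cells. Of 22 genes of IL-1 and NF-kB signalling, 8 rose and 5 fell in control EpCAM-positive and 6 rose and 10 fell in control EpCAM-negative cells. The inhibitor Nfkbia (2.63 and 1.21) and the gene Nfkbiz (2.10 and 1.49) were among those that rose in both (largest adjusted p = 0.000175). Of 12 genes that control the decay of cytokine transcripts, 3 rose and 3 fell in EpCAM-positive and 4 rose and 2 fell in EpCAM-negative cells, and Zfp36, which encodes tristetraprolin, rose by 1.11 and 0.66 log2 units (adjusted p = 8.85e-06 and 0.00238).

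**Figure D3:**
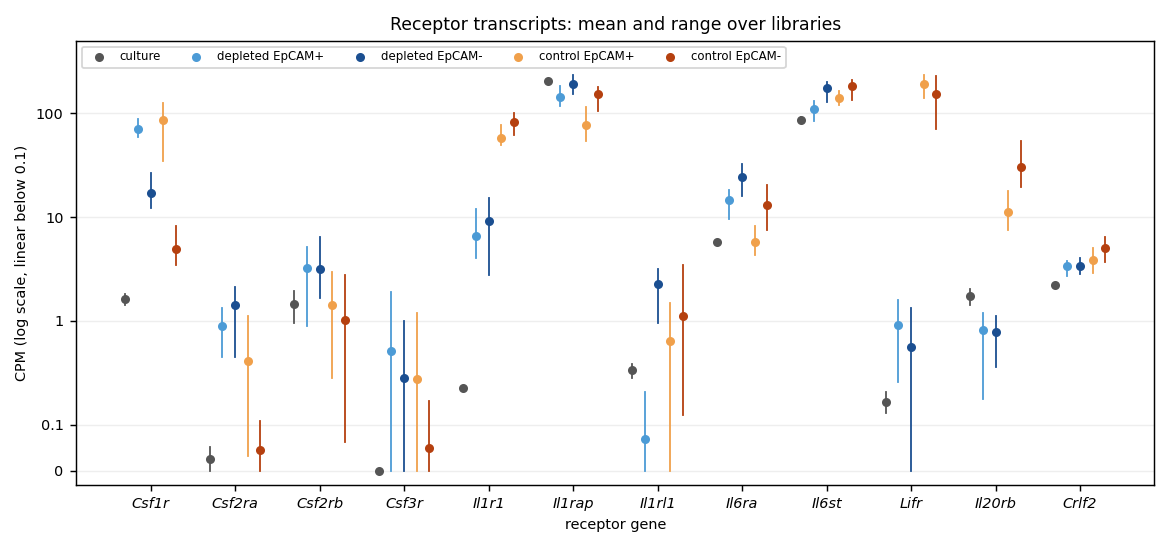
CPM of 12 receptor genes (vertical axis, log scale that is linear below 0.1) by group; points are means and lines span the lowest to the highest library, 2 for culture and 6 for each tumour group. Lifr is at 190 and 153 CPM in control cells and under 1 CPM on average in the other groups, and Csf2ra and Csf3r average at most 1.43 and 0.513 CPM in any group.

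Il24, an IL-10 family cytokine of epithelial and tumour cells, had the widest span of the 10. Culture gave 134 and 146 CPM. Depleted EpCAM-positive libraries ran from 16.8 through 22.3 to 28.4 CPM and EpCAM-negative ones from 6.35 through 10.6 to 21.7 CPM. Control EpCAM-positive libraries fell into a set of 3 near 0.3 CPM (0.289, 0.297 and 0.303) and a set of 3 between 1.45 and 3.28 CPM, while the control EpCAM-negative libraries had 0, 1, 1, 1, 4 and 0 counts. The treatments did not overlap in either fraction, nor did the fractions of control tumours. From depleted to control tumours the change of Il24 was -4.0 ± 0.46 log2 units in EpCAM-positive cells (adjusted p = 9.25e-08), 16.3-fold in pooled counts (95% counting interval 14.4 to 18.6). In EpCAM-negative cells it fell by 8.25 ± 0.70 (adjusted p = 4.34e-10), 357-fold in pooled counts (95% counting interval 173 to 889). Between the control fractions it fell by 5.06 ± 0.81 (adjusted p = 2.56e-05), 37.5-fold in pooled counts (95% counting interval 18 to 94.3). Without control EpCAM-negative library 5, which held 4 of the 7 counts, the fitted change was -5.91 between the fractions and -9.09 between the treatments. The 12 epithelial markers, all lower in the control EpCAM-negative cells, summed to 4434 CPM in control EpCAM-positive and 1224 CPM in control EpCAM-negative cells, and their part in the Il24 level was not tested.

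In depleted tumours the same fraction difference of Il24 was -0.82 ± 0.39 log2 units (adjusted p = 0.128, lower in 6 of 6). The difference passed the threshold with only the groups compared, a fit without pairing (-0.83, adjusted p = 0.0213). With the replicate numbers as a block it was -0.92 and also passed (adjusted p = 0.0124). Depleted number 5 matched best with number 6, so that pairing is uncertain. The control minus the depleted contrast was -4.24 ± 0.96 log2 units (adjusted p = 0.00246), and -5.09 without control EpCAM-negative library 5. Il20rb, a chain of the Il24 receptors, ran opposite: it averaged 0.812 and 0.772 CPM in depleted and 11.1 and 30.3 CPM in control EpCAM-positive and EpCAM-negative cells, 3.76 and 5.29 log2 units higher (adjusted p = 1.46e-09 and 4.38e-12). Its partners Il20ra and Il22ra1 had 5 and 10 counts over all 26 libraries and were not tested.

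Tslp, the cytokine of barrier epithelium, was low in all tumours and nearest to 0 in control EpCAM-positive cells. Culture gave 7.57 and 9.90 CPM. Depleted libraries ran from 0.675 through 2.10 to 2.93 CPM in EpCAM-positive and from 0.615 through 1.59 to 2.05 CPM in EpCAM-negative cells. The control EpCAM-positive libraries had 1, 0, 4, 0, 2 and 2 counts and the EpCAM-negative ones 5, 1, 13, 10, 1 and 11. No control library reached the depleted libraries of its fraction. From depleted to control tumours Tslp fell by 5.29 ± 0.65 log2 units in EpCAM-positive cells (adjusted p = 3.03e-07), 42.7-fold in pooled counts (95% counting interval 22.1 to 94.4), and fell by 2.71 ± 0.55 in EpCAM-negative cells (adjusted p = 0.000228). Between the control fractions Tslp rose by 2.09 ± 0.66 log2 units in EpCAM-negative cells (adjusted p = 0.0183). This contrast exceeded that of depleted tumours, -0.49 ± 0.50 (adjusted p = 0.518), by 2.58 ± 0.82 (adjusted p = 0.0286). With all libraries thinned to the smallest total, the excess in control tumours was 1.80 (adjusted p = 0.0574) and the difference of contrasts 2.23 (adjusted p = 0.0695). The latter also missed the threshold without control EpCAM-negative library 3, 4 or 6 (2.37 to 2.40, adjusted p 0.0517 to 0.0534) and without depleted tumours 1 and 2 (2.78, adjusted p = 0.0501). The receptor gene Crlf2 averaged 2.21 to 5.06 CPM, and its partner Il7r at most 0.183 CPM.

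**Figure D4:**
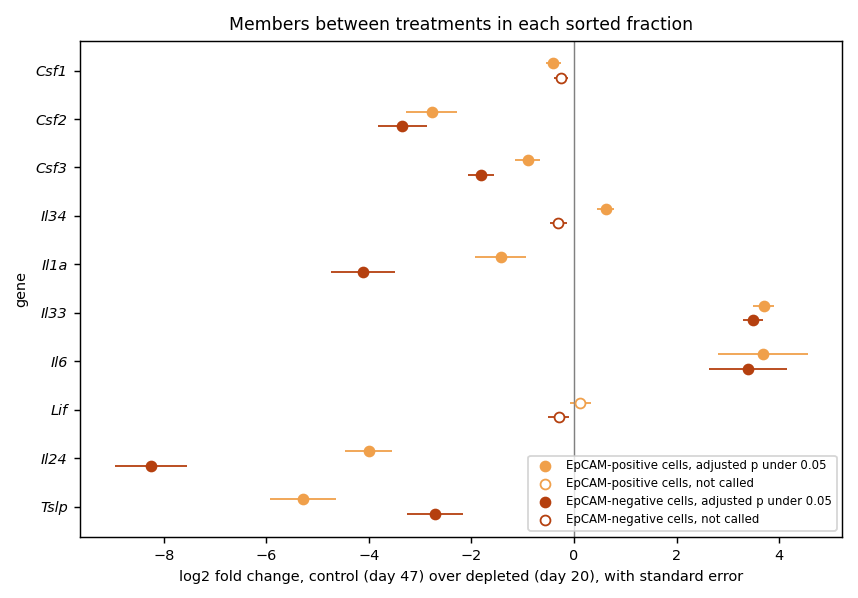
Log2 change of control (day 47) over depleted (day 20) cells for each factor, with standard errors, for both fractions; filled points have an adjusted p under 0.05. Il33 and Il6 lie between 3.39 and 3.70, and Il24 in EpCAM-negative cells at -8.25. Lif lies at 0.12 and -0.30, called in neither fraction. Csf1 lies at -0.40 in EpCAM-positive cells, which was called, and at -0.26 in EpCAM-negative cells, which was not.

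Set against the cultured line, the tumours had less of 5 factors and more Il33 in every group. Csf3, Il34, Il1a, Il24 and Tslp were lower and Il33 was higher than in culture in all 4 tumour groups. Called in all were 1 higher and 5 lower in depleted EpCAM-positive cells (39.5% of all features called), 2 higher and 5 lower in depleted EpCAM-negative cells (42.4%), 1 higher and 6 lower in control EpCAM-positive cells (50.2%), and 3 higher and 6 lower in control EpCAM-negative cells (50.7%). The 4 comparisons share the 2 culture libraries, whose spread may be technical because the labels do not say that they were grown apart. Il33 was above culture by 2.88 ± 0.33, 3.78 ± 0.34, 6.58 ± 0.39 and 7.27 ± 0.40 log2 units in these groups in turn (largest adjusted p = 1.08e-07). Il1a differed from it by -4.40 ± 0.60, -4.62 ± 0.60, -5.83 ± 0.62 and -8.74 ± 0.72 (largest adjusted p = 1.65e-06).

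The other factors differed from culture in some groups only. Csf2 was lower in control EpCAM-positive (-3.10 ± 0.59, adjusted p = 8.34e-05) and control EpCAM-negative cells (-1.91 ± 0.58, adjusted p = 0.00795), and its values in depleted cells were -0.32 ± 0.61 (adjusted p = 0.726) and 1.44 ± 0.68 (adjusted p = 0.091). Csf1 was higher in both EpCAM-negative groups, by 0.90 ± 0.21 in depleted (adjusted p = 0.00127) and by 0.64 ± 0.21 in control tumours (adjusted p = 0.0127), where the call was lost without either culture library (0.59 and 0.67, adjusted p = 0.114 and 0.0724). Il6 was called in control EpCAM-negative cells (4.45 ± 1.31, adjusted p = 0.00592). Without culture library 2, which had no Il6 count, the value was 3.39 and the call was lost. Without culture library 1 it was 9.94, a fitted value that depends on the prior count because the culture library left had no Il6 count. In control EpCAM-positive cells Il6 missed the threshold (2.45, adjusted p = 0.0889). It passed under DESeq2 (2.43, adjusted p = 0.0433) and without control EpCAM-positive library 3 (2.66, adjusted p = 0.0462). Without culture library 1 the value was 7.93, which depends on the prior count in the same way. Lif was called in none of the 4, with values from -0.62 ± 0.28 to 0.02 ± 0.29 (smallest adjusted p = 0.0786). It passed in depleted EpCAM-positive cells without depleted tumours 1 and 2 (-0.71, adjusted p = 0.0438) or with only the groups compared (-0.64, adjusted p = 0.00105), and in control EpCAM-positive cells without library 1 (-0.66, adjusted p = 0.0437). Of the lower calls, Il34 in depleted EpCAM-negative cells (-0.73 ± 0.22, adjusted p = 0.0094) missed the threshold without culture library 1 (adjusted p = 0.0746), and Tslp in depleted EpCAM-positive cells (-2.14 ± 0.63, adjusted p = 0.00779) missed it without culture library 2 (adjusted p = 0.0854).

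**Figure D5:**
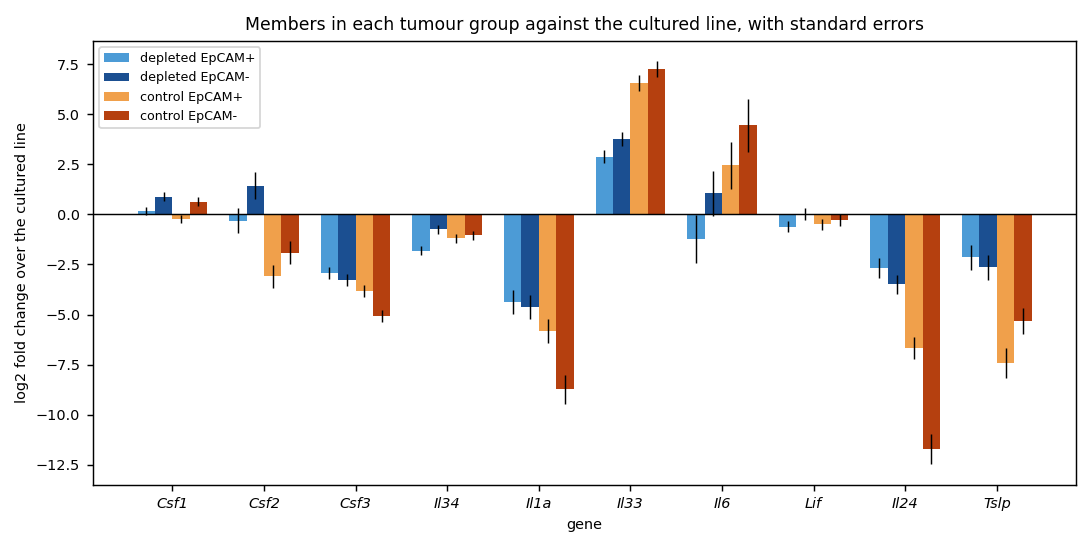
Log2 change of each tumour group over the cultured line for each factor (bars, with standard errors). Il33 is above 0 in all 4 groups, and Csf3, Il34, Il1a, Il24 and Tslp are below 0 in all 4.

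Scaled to exon length (CPM per kilobase, which lets levels of different genes be compared), the leading factor changed with the setting. In culture the order began with Il24 at 101, Csf3 at 63.9, Csf1 at 48.6 and Lif at 44.6 CPM per kilobase. In depleted EpCAM-positive cells it began with Csf1 at 55.4 and Lif at 29.0, and in depleted EpCAM-negative cells with Csf1 at 90.4, Csf2 at 63.1 and Lif at 45.3. In both control groups Il33 came first, at 111 (EpCAM-positive) and 179 (EpCAM-negative), ahead of Csf1 at 41.9 and 75.7. Csf2, next after Csf1 in depleted EpCAM-negative cells, was at 6.20 CPM per kilobase in control EpCAM-negative cells, behind Il33, Csf1, Lif and Il34, and Il24 came last there at 0.0275. Summed CPM of the 10 factors was 840 in culture, 511 and 826 in depleted and 711 and 1111 in control EpCAM-positive and EpCAM-negative cells.

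Immediate-early genes, a class induced rapidly by mitogens and by handling of the tissue, moved with some of these contrasts and not with others. Of 18 such genes, 15 rose from the EpCAM-positive to the EpCAM-negative fraction in depleted mice and none fell. In that comparison Csf2, Il34, Csf1, Il33 and Lif rose, the other 5 factors were not called and 28.5% of all features were called. Between the control fractions 2 rose and 3 fell, where Csf1, Il33, Il6 and Tslp rose, Csf3, Il1a and Il24 fell and 27.9% of all features were called. Between treatments 16 rose in control EpCAM-positive cells and none fell, while 3 of the 10 factors rose and 6 fell (40% of all features called). In control EpCAM-negative cells 4 immediate-early genes rose and 3 fell, while 2 of the 10 factors rose and 5 fell (45.1% of all features called). Summed over the 18 genes, the groups averaged 8132 and 13490 CPM in depleted and 17210 and 14870 CPM in control EpCAM-positive and EpCAM-negative cells, against 1917 CPM in culture. The part of this list in the levels of the 10 factors was not tested.

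Among related growth factors and interleukins outside the 10, 12 of 23 were tested and 6 rose and 1 fell in control tumours in either fraction. Il7, the lymphocyte growth factor, averaged 0.926 and 2.96 CPM in depleted and 19.8 and 23.0 CPM in control EpCAM-positive and EpCAM-negative cells, 4.41 and 2.96 log2 units higher (adjusted p = 5.39e-07 and 2.75e-05). Il17b averaged 0.0862 and 0 CPM in depleted and 9.24 and 4.35 CPM in control cells. Kitl, the stem cell factor, rose by 0.94 and 0.74 log2 units (adjusted p = 1.31e-05 and 0.000196). Il23a, a subunit of IL-23, fell by 3.17 log2 units in EpCAM-positive (adjusted p = 0.000192) and fell by 2.78 in EpCAM-negative cells (adjusted p = 0.00216), from 13.3 to 1.47 CPM in EpCAM-positive and from 1.35 to 0.190 CPM in EpCAM-negative cells.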

How the data were processed

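RNA from sorted tumour cells and cultured cells was amplified and sequenced as single reads, per the labels' protocols. The authors deposited raw read counts per gene. The submitters' processing notes name STAR, without a version, and the build mm9; the sources used here give no counting program, annotation or strand setting. A second deposited table, made with DESeq2 1.22.2 per the same notes, was not used. Identifiers were matched to symbols and exon lengths of GENCODE vM21, so no mm9 coordinates are given.

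Groups came from the sample titles. Counts were filtered with edgeR's default rule on expression and scaled by TMM, and edgeR's quasi-likelihood test was run on all 26 libraries with a group-means design (R 4.3.3, edgeR 4.0.16). P-values were adjusted by Benjamini-Hochberg over 16637 features, with a threshold of 0.05. The median biological coefficient of variation was 0.235. The test was checked on simulated counts. Intervals on ratios of pooled counts are 95% exact binomial intervals on counts summed over the libraries of each group. They cover at most counting error and not the spread between libraries. Reads carry no molecular identifiers, so even the counting error may be understated. All 10 factors are named whether or not they passed; of other lists, counts are given with a few of the called genes of smallest p, and any receptor. The members and lists were chosen with earlier results of these data known. No 2 libraries were identical. Alternatives were DESeq2 1.42.0, relative log expression size factors, no filter, only the groups compared, libraries thinned to the smallest total, a replicate block, each library left out, and depleted tumours 1 and 2 left out (added after seeing the data).

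Both fractions were sorted from each tumour, per the labels. Over 9104 genes, deviations of same-numbered depleted libraries from their group means correlated at 0.125 to 0.353. Depleted number 5, at 0.125, matched best with number 6. The depleted numbers were treated as pairs, which the labels do not state. Il6, Il24 and Tslp had at most 4 counts in each library of at least 1 group.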

Additional observations from a re-analysis of the deposited data

Results flagged for a closer look

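Of 40 sets of 6 libraries (10 factors in 4 tumour groups), 2 held a library far from the others by Dixon's ratio, and chance flags about 1 in 20 such sets. Csf3 in depleted EpCAM-positive library 2 was 7.85 CPM, where the nearest of the others had 12.1 CPM. Il24 in control EpCAM-negative library 5 was 0.139 CPM, from 4 counts, where the nearest other had 0.0345 CPM, from 1 count.

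The EpCAM contrast differed between control and depleted tumours by an interaction term of edgeR's quasi-likelihood test for 4 factors. The difference was -0.92 log2 units for Il34 (adjusted p = 0.00636), -2.69 for Il1a (adjusted p = 0.018), -4.24 for Il24 (adjusted p = 0.00246) and 2.58 for Tslp (adjusted p = 0.0286). Of these, Tslp missed the threshold under 5 of the alternatives tried, and Il34, Il1a and Il24 under none.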

How the results depend on the processing

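Of 90 values (10 factors in 9 comparisons), 64 kept their direction and their side of the threshold under every alternative run, 19 changed side under at least 1, and 7 others, none called under any setting, changed sign. For Il6 the difference of contrasts was 0.0452 thinned, 0.31 without depleted tumours 1 and 2 and -0.77 to 0.0841 with a library left out. Against culture, leaving out a library gave Il6 -2.30 to 4.25 in depleted EpCAM-positive and -0.0168 to 6.54 in depleted EpCAM-negative cells. The upper Il6 values are from the fit without culture library 1 and depend on the prior count, since the culture library left had no Il6 count. Lif gave -0.16 to 0.0861 in depleted EpCAM-negative cells against culture (-0.0341 without the filter, -0.35 without depleted tumours 1 and 2). Between treatments Lif ran from -0.035 to 0.20 in EpCAM-positive cells with a library left out, and was 0.023 in EpCAM-negative cells without those tumours. The number of the 10 called in each of the 9 comparisons stayed within 1.5 times its main count. Fitting only the groups compared gave no value for 5 of the 90 (Il6 in 3 comparisons, Tslp and Il24 in 1 each). In control tumours same-numbered libraries correlated at 0.0519 to 0.41, number 6 matching best with number 2, so the numbers are only shared there. With a replicate block Csf2 between control fractions was 1.07 (adjusted p = 0.0239), Il6 2.27 (adjusted p = 0.0508) and Csf3 in the difference of contrasts -0.89 (adjusted p = 0.00785). Between treatments and against culture the block was the number alone. There it joins unrelated tumours and cultures, so it tests no pairing. Against culture it gave Csf2 -1.39 (adjusted p = 0.0937) in control EpCAM-negative and 0.0222 in depleted EpCAM-positive cells. Besides Il24 between depleted fractions, the block changed no other call. Without control EpCAM-negative library 5, Il24 against culture was -12.59 in that group. Depleted libraries were shallower, and counts near 0 of Il6, Il24, Tslp and Il1a limit their ratios. The cause of these changes was not tested.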
